A study of Mus musculus with 2 samples.

Results

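The proteasome subunit genes were taken as every gene whose symbol starts with Psm, then a letter from a to g and a digit, without the 3 immunoproteasome genes Psmb8, Psmb9 and Psmb10. Of the 19059 genes measured, 46 met this definition. Among them were 16 genes of the core particle (8 of the alpha ring, Psma1 to Psma8, and 8 of the beta ring, Psmb1 to Psmb7 and Psmb11) and 17 genes of the regulatory cap (9 of its base, 8 of its lid). A further 3 genes encode assembly chaperones of the cap (Psmd5, Psmd9, Psmd10), 4 encode assembly chaperones of the core (Psmg1 to Psmg4), and 5 encode activators or an inhibitor of the core (Psme1, Psme2b, Psme3, Psme4, Psmf1). The last gene, Psmc3ip, encodes a protein of meiotic recombination that shares the letters of the symbol and is no subunit. Psme2 was not analysed here, and the counts of its near-identical copy Psme2b are uncertain because reads of both could be assigned to either.

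The measurements came from single cells of the hippocampus of aged wild-type C57BL/6 mice of both sexes, which were fixed after flash freezing and read with gene-specific probes. One library held cells of 4 pooled control mice on unsupplemented diet, and the other held cells of 4 pooled mice given tomatidine, a steroidal alkaloid of tomato, as 0.05% of the diet for 3 months from an age of 21 months. The comparison asked how long-term tomatidine acts on the aged hippocampus. Because each group was 1 library of pooled mice, the difference between mice could not be measured and no test was possible.

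The proteasome is the main machine that degrades ubiquitin-tagged proteins in the cytoplasm and nucleus. Its core is a barrel of stacked rings, in which alpha subunits form the gates and beta subunits Psmb5, Psmb6 and Psmb7 carry the catalytic sites, while the cap binds ubiquitin chains, removes them and unfolds the substrate with a ring of ATPases. In neurons the proteasome is known for its part in synaptic plasticity and in clearing misfolded proteins, and immune signals replace the catalytic subunits with Psmb8, Psmb9 and Psmb10.

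The promoters of these genes are shown first, since the subunits are known to be transcribed together. In the RefSeq sequence of the GRCm38.p6 (mm10) assembly, 38 of the 46 genes were matched, with 40 promoters because Psma6 and Psmc2 had more than 1. The genes not matched were Psma8, Psmb1, Psmb2, Psmb7, Psmc3, Psmd3, Psmd7 and Psmg2. Both strands of the 250 bases before each start were searched for 6 motifs, none of which is contained in another. The letters CGGAAG, the core of ETS family sites, were found in 21 of the 40 promoters (52.5%), against 21.3% of the 14807 promoters of genes with at least 100 UMIs and 13.6% of all 32851 promoters. The letters GCGC, any base and then TGCGC, which nuclear respiratory factor 1 recognises, were found in 6 (15.0%), those of Psma2, Psma3, Psma4, Psmc4, Psmc5 and Psmd14, against 6.80% and 3.74%. TGACNNNGC, the antioxidant response element that Nfe2l1 and Nfe2l2 bind, was found in 5 promoters (12.5%), those of Psmb5, Psmb6, Psmc6, Psmd12 and Psmd9, against 11.5% and 10.2%, a share close to the background. The remaining motifs were CCAAT (14 promoters, 35.0%, against 34.5% and 33.8%), the interferon response letters TTTC, any 2 bases and TTTC (3 promoters, 7.50%, against 2.51% and 2.98%) and the STAT letters TTCNNNGAA (1 promoter, 2.50%, against 5.86% and 7.02%). The median GC content was 57.6% in the members' promoters, 59.2% in those of genes with at least 100 UMIs and 52.4% in all. A match describes the letters only and is not evidence of binding.

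The following promoters belong to members on which the results below turn, each 5′ to 3′ on the strand of the gene with the matched motif in capitals. Those of the catalytic subunits Psmb5 (chr14:54617996-54618245, minus strand) and Psmb6 (chr11:70525107-70525356, plus strand) hold TGACNNNGC. That of Psmd14 (chr2:61711444-61711693, plus strand) holds CCAAT and CGGAAG as their reverse complements, and the nuclear respiratory factor 1 motif. That of Psme4 (chr11:30771525-30771774, plus strand) holds CGGAAG.
Psmb5: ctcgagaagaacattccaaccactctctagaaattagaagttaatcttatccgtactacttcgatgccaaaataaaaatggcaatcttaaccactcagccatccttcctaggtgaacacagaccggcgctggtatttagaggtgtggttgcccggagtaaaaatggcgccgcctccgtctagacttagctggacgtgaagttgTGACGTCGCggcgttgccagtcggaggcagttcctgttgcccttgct
Psmb6: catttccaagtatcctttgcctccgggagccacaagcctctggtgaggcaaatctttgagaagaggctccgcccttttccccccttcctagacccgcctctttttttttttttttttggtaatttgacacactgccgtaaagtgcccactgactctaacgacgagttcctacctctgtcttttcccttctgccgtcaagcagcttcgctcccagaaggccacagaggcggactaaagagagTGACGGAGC
Psmd14: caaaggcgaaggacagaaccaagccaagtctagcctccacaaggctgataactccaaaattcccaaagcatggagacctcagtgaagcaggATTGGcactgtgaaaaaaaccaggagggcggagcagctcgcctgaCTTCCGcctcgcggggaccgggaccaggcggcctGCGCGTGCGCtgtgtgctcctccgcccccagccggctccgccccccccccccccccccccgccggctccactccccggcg
Psme4: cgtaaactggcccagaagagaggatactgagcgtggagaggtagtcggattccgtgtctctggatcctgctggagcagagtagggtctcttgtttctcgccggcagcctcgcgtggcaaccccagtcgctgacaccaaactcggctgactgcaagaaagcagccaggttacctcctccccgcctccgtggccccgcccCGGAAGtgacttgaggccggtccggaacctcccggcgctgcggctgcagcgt

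The control matrix contained 15912 cells with 279525565 UMIs (unique molecular identifiers, each counting 1 ligated probe molecule) and the tomatidine matrix 15185 cells with 259059908 UMIs, of which 15115 and 14502 cells were kept. Their median depths were 7077 and 7408 UMIs per cell, and 292 barcodes occurred in both libraries. Cells fell into 38 clusters, 11 of which stayed unnamed while the others were named by their markers in 13 classes, and the 10 classes with at least 100 cells in each library were compared. The subcortical neuron-like class was named by markers of neurons outside the hippocampus, so its values are not those of hippocampal neurons. Its clusters, led by Pou4f2, Gbx2 and Gpr151, held 176 and 674, 279 and 231, and 131 and 35 control and tomatidine cells. An unnamed cluster with midbrain genes (Gata3, Sox14) held 179 and 505, and another with striatal genes (Adora2a, Drd2) held 84 and 2. Cells of the choroid plexus-like class numbered 343 in the control and 33 in the tomatidine library, and choroid plexus markers were lower with tomatidine in other classes too, for example 1418 against 254 CPM in astrocyte-like cells. Levels are given as CPM, UMIs of a gene or sum scaled to 1000000 UMIs of the class in that library, with exact 95% intervals that cover counting error only. Levels of different genes cannot be compared, because the probes per gene are not given, whereas the same gene or sum can be compared between classes and libraries.

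Core and cap transcripts took a larger share of the UMIs in neurons than in glia in both libraries. In the control library the summed core level was 1628 CPM (1610 to 1646) in subcortical neuron-like, 1580 CPM in interneuron-like and 1507 CPM (1499 to 1515) in excitatory neuron-like cells. It was 1063 CPM (1043 to 1084) in astrocyte-like, 1067 CPM in microglia-like, 1154 CPM in oligodendrocyte-like and 1222 CPM in OPC-like cells, the precursors of oligodendrocytes. Among the cells of vessels and borders, endothelial-like cells lay between these groups at 1325 CPM, and meningeal fibroblast-like and border macrophage-like cells were at 1060 and 1099 CPM. Astrocyte-like, microglia-like, meningeal fibroblast-like and border macrophage-like cells were neighbours whose intervals overlapped. The cap followed the same division, with 2701, 2543 and 2318 CPM in the neuronal classes and 1614 to 1856 CPM in the glial classes. The choroid plexus-like class, too small in the tomatidine library to be compared, had a core level of 901 CPM in the control and 790 CPM in the tomatidine library.

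**Figure D1:**
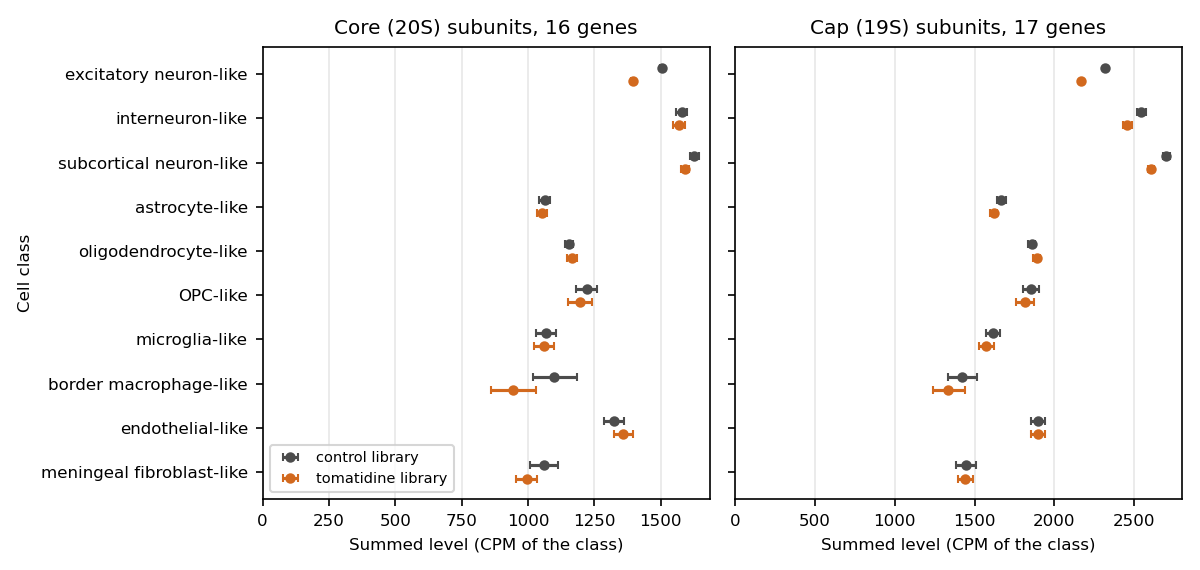
Summed core and cap level (CPM, horizontal axis) in each class of cells (vertical axis), with the control and tomatidine libraries as separate points and exact 95% counting intervals as bars. The neuronal classes sit above the glial classes for both sums, from 1507 to 1628 CPM against 1063 to 1222 CPM for the control core.

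Taken over excitatory neuron-like and interneuron-like cells against astrocyte-like, oligodendrocyte-like, OPC-like and microglia-like cells, the log2 ratio of the core was 0.43 (0.41 to 0.44) in the control and 0.35 (0.33 to 0.36) in the tomatidine library. That of the cap was 0.40 and 0.33. With both sets of cell thresholds that the study describes, the core ratio was 0.20 and 0.16 and the cap ratio 0.23 and 0.20. At the same mix of depths they were 0.36 and 0.25 for the core and 0.31 and 0.24 for the cap. Of the 44 members with at least 100 UMIs in each library, 17 were higher in neurons by at least 0.32 on the log2 scale in both libraries, a share of the members close to the 37.2% of all 13182 genes that passed this minimum. The median member was at 0.29 in the control and 0.27 in the tomatidine library, against 0.14 for all genes in each. Only 1 member, Psme2b, was lower in neurons by that much in both libraries, against 29.9% of all genes.

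The members that stood highest in neurons belonged to different parts of the particle. Psma1, a gate subunit of the alpha ring, was at 0.74 (0.68 to 0.80) in the control and 0.62 (0.56 to 0.69) in the tomatidine library on the log2 scale. Psmd14, the lid enzyme that cuts ubiquitin chains from the substrate, was at 0.70 and 0.61. Psmb5, the chymotrypsin-like subunit, was at 0.71 and 0.59, with 276 CPM in neurons against 169 CPM in glia of the control library. The other catalytic subunits were less unequal, with Psmb6, the caspase-like subunit, at 0.10 and 0.03 and Psmb7, the trypsin-like subunit, at 0.20 and 0.22. Below all other members with at least 1000 UMIs lay Psme2b, a copy of the activator gene Psme2, at -1.03 and -1.0, and next to it Psmg3, a core chaperone, at -0.08 and 0.05. By the ratio alone Psmb11, a subunit of the thymus, was highest (1.69 and 1.52) and Psma8, a subunit of the testis, lowest (-3.43 and -1.57), but both rested on few UMIs. Of the 14 core and 17 cap members that passed the minimum, 7 each were among the 17. For contrast, the 3 immunoproteasome genes together were at -1.14 and -0.84, with Psmb8 at -3.60 and -3.14 and Psmb9 at -3.45 and -2.92 but Psmb10 at 0.02 and 0.01.

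**Figure D2:**
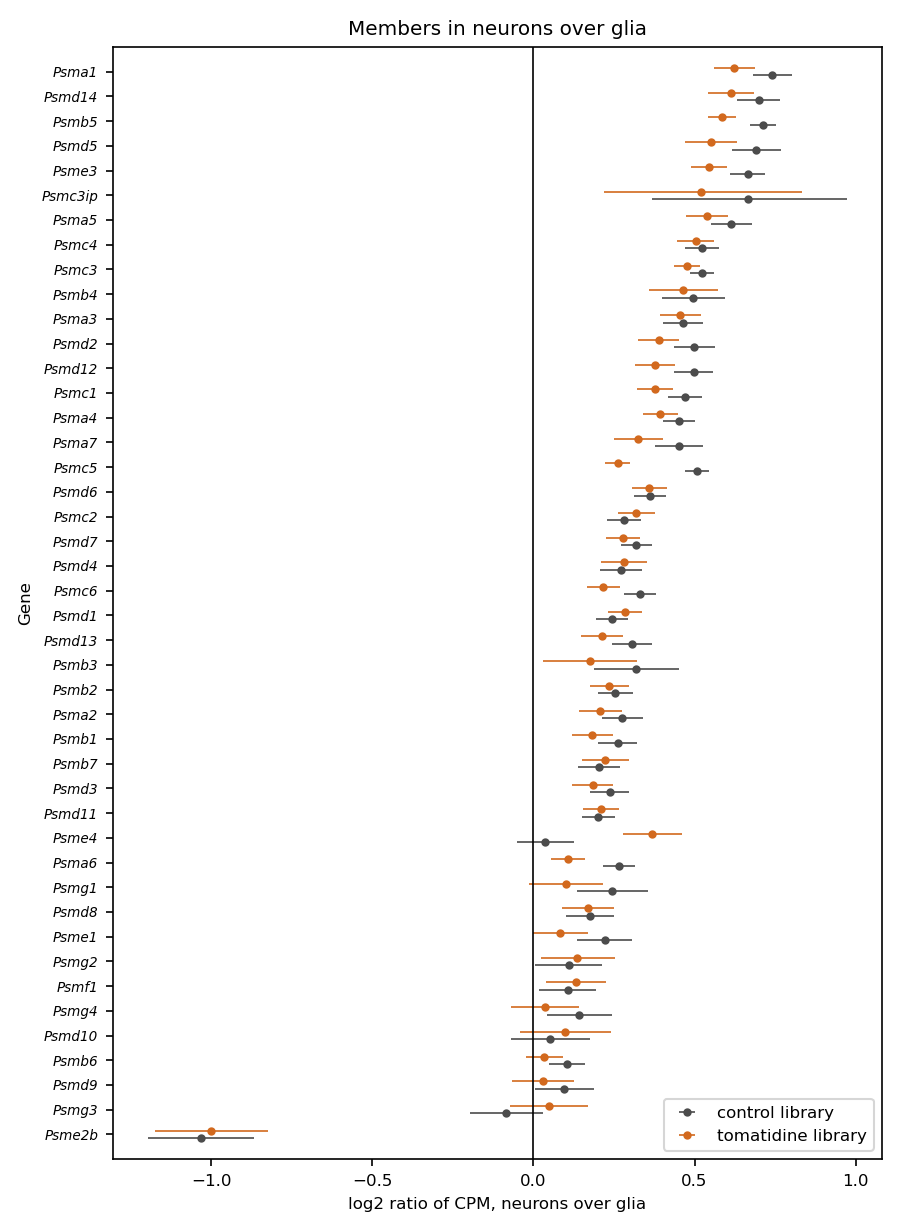
Log2 ratio of the level in neurons over that in glia for the 44 members with at least 1000 UMIs, with 1 point per library and exact 95% counting intervals. Psma1, Psmd14 and Psmb5 lie at 0.59 to 0.74, and Psme2b lies apart at about -1.0 in both libraries.

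When each gene was assigned the class where it was highest in both libraries, neurons and above all the subcortical neuron-like class held most of the assigned members. Only 10 members had at least 100 UMIs in every class. Of these, Psmd7, Psmc5, Psma6 and Psmb5 were highest in subcortical neuron-like cells, against 8.07% of genes, and Psmc3, an ATPase of the base, was highest in excitatory neuron-like cells, against 13.2%. The lid subunit Psmd6 was highest in OPC-like cells (5.86%). Lowest levels fell in border macrophage-like cells for 5 of the 10, against 4.67%, in astrocyte-like cells for Psma3 and Psmc6 (11.5%), in meningeal fibroblast-like cells for Psmb5 (3.32%) and in oligodendrocyte-like cells for Psme1 (20.9%). Without the border macrophage-like class, which had the fewest UMIs, 38 members could be placed: 16 were highest in subcortical neuron-like cells (9.83% of genes) and 2 each in OPC-like (9.58%), excitatory neuron-like (13.1%) and interneuron-like cells (8.82%). Lowest were 12 in meningeal fibroblast-like (4.81%), 7 in astrocyte-like (13.1%), 3 in oligodendrocyte-like (21%) and 1, Psmd9, in microglia-like cells (6.42%). Subcortical neuron-like cells were also the deepest, with a median of 28948.5 UMIs per control cell, and the part of depth in this order was not tested.

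With tomatidine the core sum in excitatory neuron-like cells was 1397 CPM (1389 to 1405) against 1507 CPM, a log2 ratio of -0.11 (-0.12 to -0.10), and the cap sum was 2168 against 2318 CPM, a ratio of -0.10 (-0.11 to -0.09). Each part of the particle had a lower sum here, the alpha ring at -0.09, the beta ring at -0.13 (728 against 663 CPM), the base at -0.10 and the lid at -0.09. Of the 44 members with at least 100 UMIs in the class, 36 had a lower level with tomatidine, against 36.7% of the 12999 genes that passed this minimum, and for 28 the whole interval was below 0, against 19.1%. Intervals narrow as UMIs rise, and no share for genes of like UMIs is given, so the 28 and the 19.1% are not a like comparison. The median member was at -0.08, the median gene at 0.05. No member was lower by 0.32 on the log2 scale, the threshold used for single genes, which 1.19% of genes passed. The core was lower in each of the 7 excitatory clusters, between -0.04 and -0.22. In the same class the summed excitatory markers were at 9548 CPM in the control and 8896 CPM in the tomatidine library, and those of astrocytes at 877 and 1069 CPM, and the part of this in the result was not tested.

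The core sum in the other classes differed by amounts that moved with the choice of cells. It was 1580 against 1571 CPM in interneuron-like cells (-0.01, -0.04 to 0.02), 1628 against 1592 CPM in subcortical neuron-like cells (-0.03, -0.05 to -0.01) and 1154 against 1166 CPM in oligodendrocyte-like cells (0.02, -0.01 to 0.04), where scaling by the trimmed mean of M values turned the ratio to -0.05. With both sets of cell thresholds the subcortical ratio was -0.13, past the excitatory one of -0.08 under the same thresholds, and at the same mix of depths it was -0.0032. Under those thresholds the subcortical class held 450 control and 248 tomatidine cells at medians of 3825.5 and 4958 UMIs. The main class held 586 and 940 cells at 28948.5 and 26085 UMIs, so the ratios are not those of the same cells. Cells taken by single-cell markers gave -0.12 in interneuron-like cells and -0.12 in astrocyte-like cells, so no order of the classes is drawn. The interneuron-like class so taken held only 37 control and 49 tomatidine cells, at medians of 21006 and 8732 UMIs, instead of 547 and 511 cells. Astrocyte-like (-0.02), OPC-like (-0.03), microglia-like (-0.01), endothelial-like (0.04) and meningeal fibroblast-like cells (-0.09, -0.18 to 0.0027) had intervals that reached 0. The cap ratio was -0.05 (-0.07 to -0.03) in interneuron-like, -0.05 (-0.07 to -0.04) in subcortical neuron-like and -0.04 (-0.07 to -0.01) in astrocyte-like cells. It was 0.02 (0.0018 to 0.05) in oligodendrocyte-like cells, and elsewhere outside the excitatory class its intervals reached 0. The interneuron-like cap ratio was 0.02 with both sets of cell thresholds. In border macrophage-like cells the core was at 1099 CPM (1020 to 1184) against 944 CPM (863 to 1032), a ratio of -0.22 (-0.39 to -0.05) from 156 and 131 cells. The markers of border macrophages were at 3215 and 4355 CPM there, and all 10 microglia markers were raised too, at 15518 and 13199 CPM (-0.23). Choroid plexus markers were at 1162 and 298 CPM and oligodendrocyte markers at 4821 and 3216 CPM, and all 7 T-cell markers were raised in this cluster, at 905 and 848 CPM. Their part in the ratio was not tested. The ratio of core to cap, which does not depend on scaling, lay between 0.603 and 0.773 in the control library. Its log2 difference between libraries was within counting error in 9 of the 10 compared classes and was 0.04 (0.01 to 0.08) in interneuron-like cells, where it turned to -0.05 with both sets of cell thresholds. With cells taken by single-cell markers it was 0.29 in endothelial-like cells, from only 21 control and 57 tomatidine cells with 76170 and 171022 UMIs. No interval is given for that value, so it is not read as a difference.

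**Figure D3:**
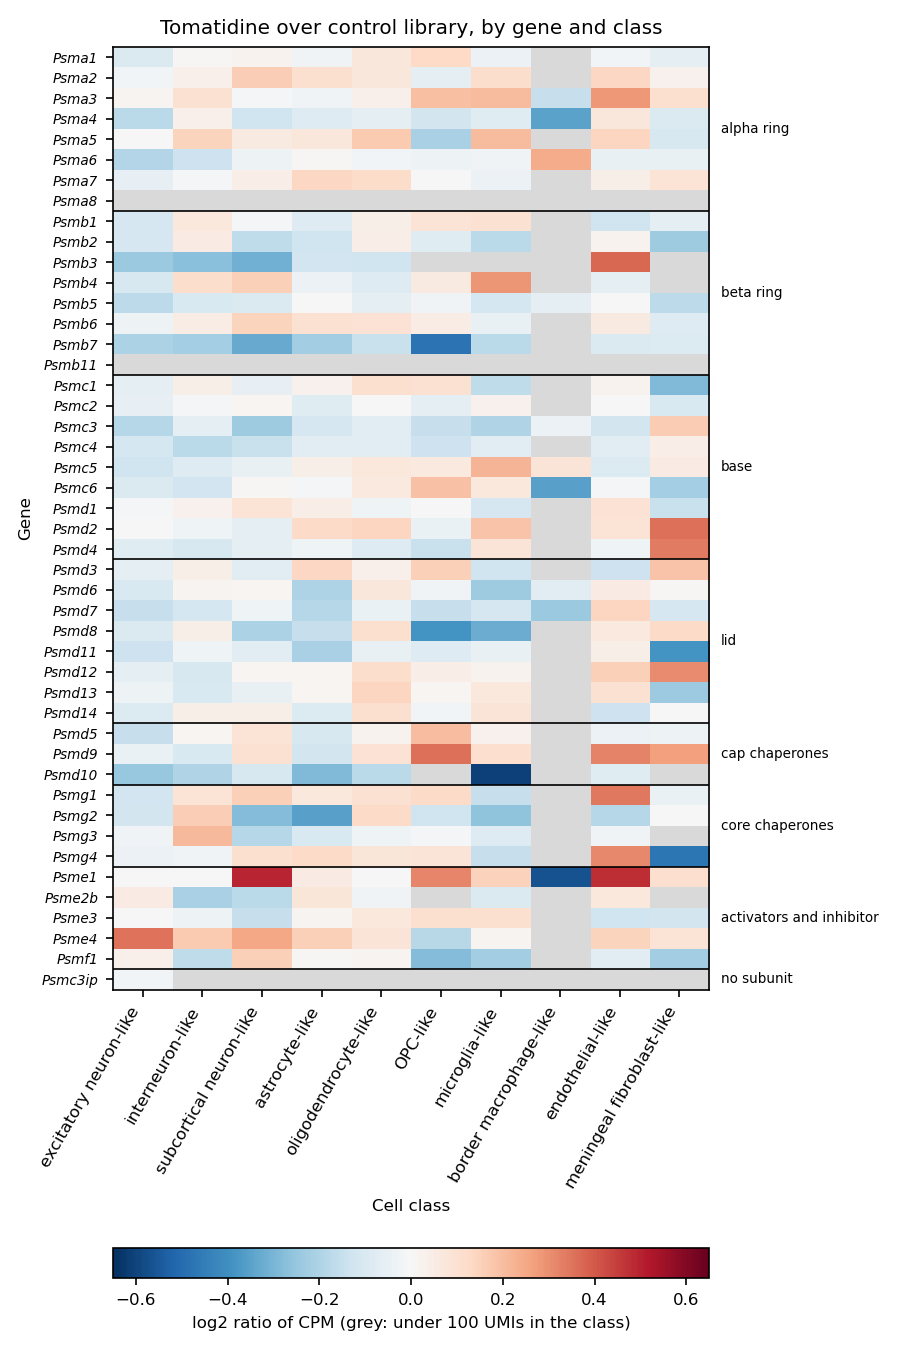
Heat map of the log2 CPM ratio of tomatidine over control for each member (rows, by role) in each compared class (columns), with grey where a member had under 100 UMIs. Excitatory neuron-like cells show low negative ratios in most rows, with a median of -0.08, and the row of Psme4 stands out there at 0.35.

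Single members past a log2 difference of 0.32 were few. In interneuron-like and oligodendrocyte-like cells there were 0 of 43, against 7.28% of genes higher and 2.34% lower in the former and 12.6% and 1.86% in the latter. Subcortical neuron-like cells had 1 of 43 higher (17% of genes) and 1 lower (9.87%), astrocyte-like cells had 1 of 43 lower (3.63%) and 0 higher (4.87%), and microglia-like cells had 2 of 42 lower (4.99%) and 0 higher (10.5%). In OPC-like cells 1 of 40 was higher (9.45%) and 2 lower (7.86%), in meningeal fibroblast-like cells 2 of 38 were higher (8.85%) and 2 lower (12.6%), and in endothelial-like cells 4 of 43 were higher (8.86%) and 0 lower (8.14%). Border macrophage-like cells had 3 of 10 lower (15.3%) and 0 higher (18.6%). In most classes these shares were at or below those of all genes, and all classes come from the same pair of libraries.

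Among the catalytic subunits, the ratio of Psmb7 was below 0 in each compared class, though it had under 100 UMIs in border macrophage-like cells. In endothelial-like cells Psmb7 was, however, at 0.12 with both sets of cell thresholds and 0.83 in the 21 control and 57 tomatidine cells taken by single-cell markers. It was at 104 against 82.5 CPM in subcortical neuron-like cells (-0.33, -0.41 to -0.24), at 70.1 against 50.3 CPM in OPC-like cells (-0.48, -0.82 to -0.14) and at 79.8 against 69.2 CPM in excitatory neuron-like cells (-0.20, -0.26 to -0.15). It was at -0.22 in interneuron-like, -0.23 in astrocyte-like and -0.15 in oligodendrocyte-like cells, with intervals below 0. In endothelial-like cells its ratio of -0.09 had an interval from -0.36 to 0.18. In the OPC-like class oligodendrocyte markers were at 14598 and 8051 CPM and choroid plexus markers at 1828 and 912 CPM in the control and tomatidine libraries, and their part in the ratios of Psmb7 and Psmd8 there was not tested. Over all kept cells Psmb7 was at 82.2 against 72.7 CPM. Psmb5 was at 277 against 246 CPM in excitatory neuron-like cells (-0.17, -0.20 to -0.14) and at 172 CPM in both libraries in astrocyte-like cells. Psmb6 moved the other way in subcortical neuron-like cells, at 121 against 134 CPM (0.15, 0.07 to 0.22), and was at 101 against 98.6 CPM in excitatory neuron-like cells. The subcortical neuron-like class joined clusters whose mix differed, with 176 and 674, 279 and 231, and 131 and 35 control and tomatidine cells. Its own markers were at 3206 and 2233 CPM. For members other than Psme1, the part of this mix in the ratios of the class, here and below, was not tested.

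Psmb3, a structural subunit of the beta ring, was at -0.24, -0.27 and -0.31 in excitatory neuron-like, interneuron-like and subcortical neuron-like cells, from 20.6 against 17.4 CPM in the first. In endothelial-like cells it was at 18.0 against 23.3 CPM (0.37, -0.11 to 0.86), a ratio that was -0.0036 with both sets of cell thresholds, and in oligodendrocyte-like cells at -0.13 (-0.37 to 0.11). Of the alpha ring, Psma5 was highest among the members in oligodendrocyte-like cells at 68.8 against 77.3 CPM (0.17, 0.05 to 0.28). Psma2 was at 98.9 against 110 CPM in subcortical neuron-like cells (0.16, 0.08 to 0.24). Psma7 and Psma3 were the members of this ring nearest the top in astrocyte-like (0.13) and microglia-like cells (0.21), both with intervals that reached 0. In border macrophage-like cells Psma4 was at -0.35 and Psma6 at 0.24, neither interval excluding 0.

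Of the base, the ATPase Psmc3 was at 294 against 259 CPM in excitatory neuron-like cells (-0.18, -0.21 to -0.16). The ATPase Psmc5 was at 164 against 192 CPM in microglia-like cells (0.22, 0.05 to 0.40), beside Psmb4 of the beta ring, which was at 21.2 against 25.9 CPM (0.29, -0.21 to 0.79). The ubiquitin receptor Psmd4 was at 79.8 against 75.6 CPM in excitatory neuron-like cells and at 42.9 against 54.3 CPM (0.34, -0.11 to 0.80) in meningeal fibroblast-like cells, where the scaffold subunit Psmd2 was at 0.36 (-0.03 to 0.75). Psmc6 in border macrophage-like cells was at 138 against 108 CPM (-0.35, -0.86 to 0.15), Psmc3 at -0.04 and Psmc5 at 0.09. Of the ATPases, Psmc1 was among the lowest members of meningeal fibroblast-like cells at -0.28 (-0.63 to 0.06).

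Of the lid, Psmd14 was at 101 against 95 CPM in excitatory neuron-like cells (-0.09, -0.13 to -0.04) and at 95.1 against 97.6 CPM in subcortical neuron-like cells. Psmd8, a lid subunit, was at 62.8 against 48.0 CPM in OPC-like cells (-0.39, -0.74 to -0.03) and at 66.2 against 52.9 CPM in microglia-like cells (-0.32, -0.64 to -0.01). The scaffold subunit Psmd11 was at 106 against 81.0 CPM in meningeal fibroblast-like cells (-0.39, -0.70 to -0.07). In that class Psmd12 was at 0.31 (-0.06 to 0.68). Psmd13 and Psmd2 shared a ratio of 0.14 in oligodendrocyte-like cells, above most members there. Psmd3 was at 0.13 in astrocyte-like and -0.14 in endothelial-like cells, where Psmd14 was at -0.13, each with an interval that reached 0.

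Among the assembly chaperones, Psmd10, which guides the base and is also known as gankyrin, was the lowest member of excitatory neuron-like cells at 20.2 against 17.1 CPM (-0.25, -0.35 to -0.14). It was also lowest in microglia-like cells, at 28.5 against 18.7 CPM (-0.61, -1.13 to -0.10), and had low ratios in astrocyte-like (-0.28, -0.59 to 0.02) and oligodendrocyte-like cells (-0.18, -0.40 to 0.05). Psmg2, which pairs with Psmg1 to start the alpha ring, was at 26.9 against 21 CPM in astrocyte-like cells (-0.36, -0.61 to -0.10), at -0.28 (-0.43 to -0.13) in subcortical neuron-like cells and at 0.16 (-0.04 to 0.37) in interneuron-like cells. In microglia-like and endothelial-like cells its ratios of -0.26 and -0.19 had intervals that reached 0. Psmd9 was at 33.2 against 42.5 CPM in OPC-like cells (0.36, -0.07 to 0.78) and at 0.32 (-0.03 to 0.69) in endothelial-like cells, where Psmg1 was at 0.35 (-0.04 to 0.73). These ratios turned below 0 for Psmd9 in both classes when cells were taken by single-cell markers. Psmd5 was at 0.20 in OPC-like cells, Psmg3 at 0.21 in interneuron-like cells, and Psmg4 at -0.47 in meningeal fibroblast-like cells, and the intervals of these 3 ratios reached 0.

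Psme4, which encodes the activator PA200 that binds the core in place of the cap, was the member that differed most in excitatory neuron-like cells. It was at 39.5 against 50.5 CPM, a log2 ratio of 0.35 (0.29 to 0.42), while 10.5% of genes there were higher by at least 0.32. Its ratio was above 0 in each of the 7 excitatory clusters, from 0.20 to 0.68, and 6 of the 7 intervals excluded 0. In subcortical neuron-like cells it was at 35.7 against 42.5 CPM (0.25, 0.12 to 0.39), and in interneuron-like cells at 33.0 against 37.2 CPM (0.17, -0.02 to 0.37). In glia it was at 40.9 against 43.3 CPM in oligodendrocyte-like cells (0.08, -0.07 to 0.23), at 25.1 against 27.9 CPM in astrocyte-like cells and at 50.8 against 44.8 CPM in OPC-like cells (-0.18, -0.56 to 0.19). The ratio of neurons over glia of Psme4 was 0.04 (-0.05 to 0.13) in the control and 0.37 (0.28 to 0.46) in the tomatidine library. Scaled by trimmed mean of M values, the excitatory ratio was 0.31, and with both sets of cell thresholds 0.30, both under the threshold of 0.32.

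**Figure D4:**
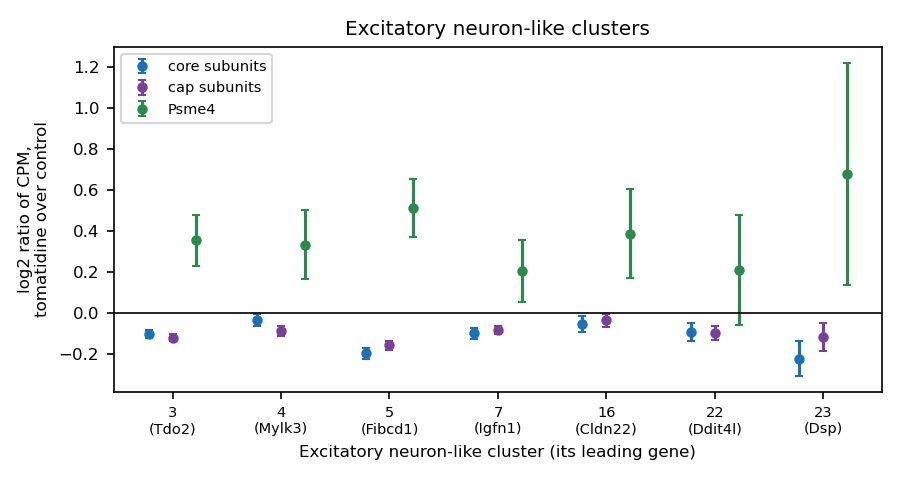
Log2 ratio of tomatidine over control in each of the 7 excitatory clusters for the core sum, the cap sum and Psme4, with exact 95% counting intervals. The core lies at -0.04 to -0.22 and Psme4 at 0.20 to 0.68.

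Psme1, a subunit of the activator PA28 that interferon is known to induce, differed in different directions between classes. It was at 106 against 148 CPM in endothelial-like cells (0.48, 0.29 to 0.67) and at 188 against 127 CPM in border macrophage-like cells (-0.56, -1.02 to -0.12). In subcortical neuron-like cells it was at 51.2 against 72.2 CPM (0.49, 0.39 to 0.60), yet within its clusters the ratios were -0.01, 0.36 and -0.70, at the same mix of clusters the ratio was 0.01, and with both sets of cell thresholds it was 0.23. In that class 1 cluster held 176 control and 674 tomatidine cells, with 87.9 and 87.4 CPM. Elsewhere Psme1 had nearly equal levels, at 41.9 against 42.0 CPM in excitatory neuron-like, 84.6 against 84.4 CPM in interneuron-like and 24.5 against 24.6 CPM in oligodendrocyte-like cells. It was at 42.2 against 52.6 CPM in OPC-like cells (0.32, -0.06 to 0.69) and at 116 against 129 CPM in microglia-like cells.

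In the endothelial-like class the endothelial markers were at 11239 and 12514 CPM, mural markers at 6411 and 7952 CPM, astrocyte markers at 7659 and 5536 CPM and choroid plexus markers at 2761 and 304 CPM in the control and tomatidine libraries. A mural-like class of 38 control and 39 tomatidine cells was separate, but all 10 mural markers were also raised in the endothelial-like cluster. Endothelial and mural cells were thus only partly resolved, and the part of these mixtures in the endothelial-like ratio of Psme1 was not tested. The 3 immunoproteasome genes, which the definition left out, were summed for comparison and were at 162 against 235 CPM there (0.53, 0.38 to 0.69). They were at 245 against 197 CPM in microglia-like cells (-0.32, -0.48 to -0.16) and at 391 against 306 CPM in border macrophage-like cells (-0.35, -0.65 to -0.06).

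**Figure D5:**
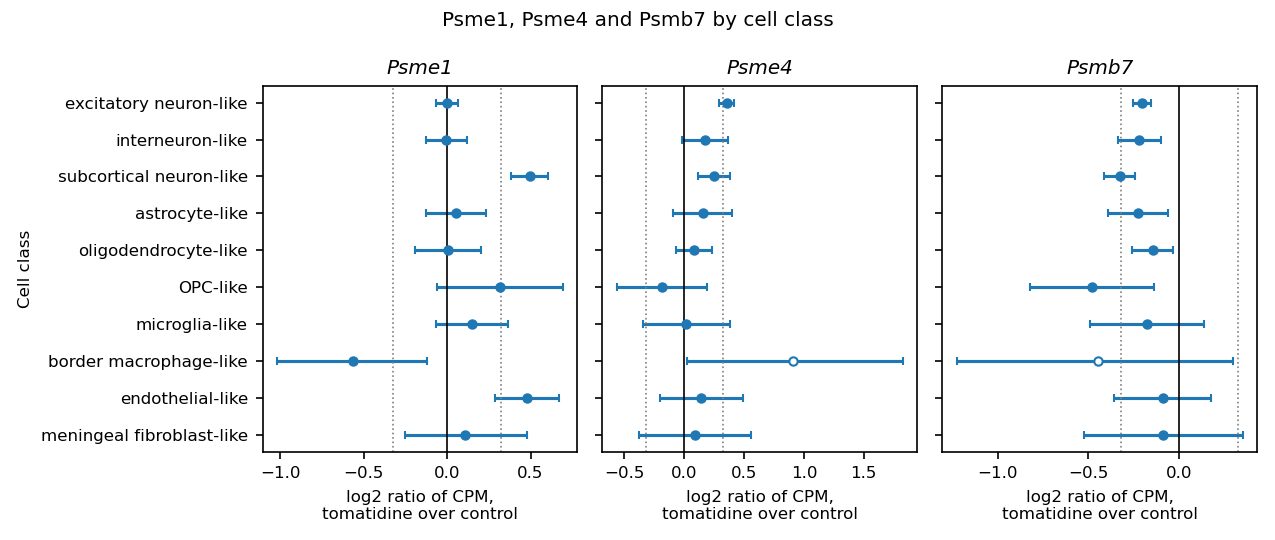
Log2 ratio of tomatidine over control by class for Psme1, Psme4 and Psmb7, with exact 95% counting intervals, open points for classes with under 100 UMIs of the gene and dotted lines at a log2 difference of 0.32 either way. Psmb7 is below 0 in each class with these cells (0.12 in endothelial-like cells with both sets of cell thresholds), and Psme1 lies at 0.48 in endothelial-like and -0.56 in border macrophage-like cells.

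The remaining activators and the inhibitor differed little. Psme3, a nuclear activator, was at 146 CPM in both libraries in excitatory neuron-like cells and at 76.0 against 79.7 CPM in oligodendrocyte-like cells. Psme2b was at 6.60 against 6.85 CPM in excitatory neuron-like cells, but at 77.3 against 72.3 CPM in microglia-like and 49.2 against 51.6 CPM in endothelial-like cells, and at -0.21 (-0.58 to 0.16) in interneuron-like cells. Psmf1, an inhibitor of the core, was at 40.1 against 41.0 CPM in excitatory neuron-like cells (0.03, -0.04 to 0.10) and at -0.28 (-0.68 to 0.11) in OPC-like cells.

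Members known from other tissues were scarce. Psma8, of the testis, had 97 and 121 UMIs over all kept cells, of which 36 and 43 were in endothelial-like cells (10.3 CPM, 7.21 to 14.2, and 11.2 CPM, 8.07 to 15.0) and 22 and 16 in microglia-like cells, but 2 and 7 in the far larger excitatory neuron-like class. Psmb11, of the thymus, had 56 and 60 UMIs, of which 37 and 34 were in excitatory neuron-like cells (0.396 and 0.426 CPM). It lies beside Psmb5 on chromosome 14 (chr14:54621433-54629556 against chr14:54614119-54618022 in mm10). Psmc3ip was at 57.8 CPM (39.0 to 82.4) and 68.5 CPM (39.2 to 111) in ependymal-like cells from 30 and 16 UMIs, against 5.31 and 5.25 CPM in excitatory neuron-like cells.

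Other genes of the pathway, from lists set out beside the members, mostly differed by less than 0.32 on the log2 scale. Of all genes, 4.87% to 18.6% were higher and 1.19% to 15.3% lower by that much, depending on the class. Of 11 partners of the proteasome analysed, 105 gene and class pairs had enough UMIs, of which 3 were higher and 5 lower, with ends at -0.44 for Akirin2, which brings the proteasome into the nucleus, in meningeal fibroblast-like cells and 0.79 for the importin Ipo9 in border macrophage-like cells. Of 12 genes of ubiquitin and shuttling, 116 pairs gave 1 higher and 2 lower, both ends being the ubiquitin-activating enzyme Uba6, at -0.72 in meningeal fibroblast-like and 0.64 in microglia-like cells. Of 8 genes that control proteasome genes, 64 pairs gave 1 higher and 2 lower, from -0.39 for Nfe2l1, the factor that restores proteasome genes after inhibition, in border macrophage-like cells to 0.38 for Keap1 in meningeal fibroblast-like cells. Of the 3 immunoproteasome genes, 19 pairs gave 4 higher and 5 lower, from Psmb8 at -0.93 in oligodendrocyte-like cells to Psmb9 at 0.62 in endothelial-like cells. Paaf1, Ubb, Rps27a and Ddi2 were not analysed here.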

How the data were processed

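Single-cell fixed-RNA libraries of hippocampus, 1 of 4 pooled control mice and 1 of 4 pooled tomatidine mice, were analysed from the deposited matrices of counts, which hold UMIs per gene and cell that the authors obtained with Cell Ranger (8.0.0 in the submitters' notes, 7.1.0 in the matrix header) on mm10. These counts are not normalized and cover 19059 genes, of which 6 symbols occur more than once. Coordinates are those of mm10.

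Cell filters were a minimum of 500 UMIs, over 250 genes, log10 genes divided by log10 UMIs over 0.8 and a mitochondrial share under 20%. Those failing the filter numbered 489 and 387 and held 23.5% and 20.1% of the UMIs. Scrublet (scanpy 1.11.5) called 0 and 2 doublets by its own threshold, so the top 2% of its scores (308 and 296 cells) were removed instead. Seurat 5.3.0 (R 4.3.3) integrated the libraries by reciprocal PCA with 2000 variable genes and 30 components at resolution 0.8. The members and pathway lists, 80 genes in all, were left out of the clustering. A cluster was named for the class with the largest share of its markers raised, at least 3 of them. Raised markers were at least 2-fold higher and found in at least 10% of its cells. Mixtures, with over 50% of another class's markers raised and found in over 50% of cells, stayed unnamed. So did clusters where another class had more markers among the 10 leading genes, and shallow clusters with none of their own there. Drd2 or Adora2a among these genes barred the interneuron name, and Gata3 or Sox14 the Cajal-Retzius name. The rule was set after the clusters had been seen.

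UMIs were summed per library and class and scaled to all UMIs of the class. Levels have exact Poisson and ratios conditional binomial 95% intervals, and the core to cap ratio a Wald interval. They cover counting error only. With 1 library per group no test was run, and a member with at least 100 UMIs in a class was counted as past the fold at a log2 difference of 0.32. Named were the catalytic subunits, Psmd14, Psmd4, the activators and inhibitor, the 3 highest and 3 lowest ratios of each class, the 3 largest and smallest ratios of neurons over glia and Psmc3ip. The members and lists were chosen with earlier results of these data known. The computations ran in Python 3.11.15 (numpy 2.4.6, scipy 1.17.1, pandas 2.3.3, matplotlib 3.10.9) and were tested on simulated data. The alternatives were both sets of cell thresholds in the study (also at most 6000 genes and under 10% mitochondrial UMIs), no doublet removal, resolution 1.5, no integration, cells gated by their own markers, trimmed mean of M values scaling (edgeR 4.0.16), the same mix of clusters or of depths in both libraries, no filter on low counts and 1.5-fold. Leaving out border macrophage-like cells and using all deposited cells were alternatives added after the data had been seen.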

Additional observations from a re-analysis of the deposited data

Results flagged for a closer look

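Several ratios of tomatidine over control took opposite signs in different classes with counting intervals that excluded 0 on both sides. The differences between classes were not tested, since each class has 1 library per group and all classes share the 2 libraries. The summed immunoproteasome genes were at 0.53 in endothelial-like and 0.42 in subcortical neuron-like cells, but at -0.35 in border macrophage-like and -0.34 in oligodendrocyte-like cells. The oligodendrocyte-like value differed by cluster, at 0.10 (-0.28 to 0.46) in 1 cluster and -0.86 (-1.28 to -0.45) in another. With both sets of cell thresholds the subcortical value was -0.38, but the class then held 450 and 248 shallower cells instead of 586 and 940. Psme1 was at 0.48 in endothelial-like and 0.49 in subcortical neuron-like cells, but at -0.56 in border macrophage-like cells. The subcortical ratio of Psme1 was 0.01 at the same mix of clusters.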

How the results depend on the processing

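No paired analysis was possible because each group was 1 library. The direction of the core and cap ratios in excitatory neuron-like cells was kept under all alternatives run. Core and cap were there at -0.084 and -0.074 with both sets of cell thresholds, -0.15 and -0.14 with trimmed mean of M values (TMM) scaling and -0.094 and -0.084 at the same depth mix, and the cap was at -0.11 at the same cluster mix. In interneuron-like cells TMM scaling gave -0.042 and -0.086 and the marker gate -0.12 and -0.13, while both sets of cell thresholds gave a cap of 0.021 and a core to cap difference of -0.045. The gated interneuron-like class held only 37 control and 49 tomatidine cells, at medians of 21006 and 8732 UMIs. In subcortical neuron-like cells core and cap were at -0.13 and -0.10 with both sets of cell thresholds (core to cap -0.030), -0.082 and -0.10 with TMM scaling, -0.069 and -0.088 at the same cluster mix and -0.0032 and -0.024 at the same depth mix. With both sets of cell thresholds that class held 450 and 248 cells instead of 586 and 940, with far fewer UMIs per cell. In oligodendrocyte-like cells TMM scaling gave -0.046 and -0.037 and the marker gate a cap of 0.050. The marker gate gave -0.12 and -0.14 in astrocyte-like cells, and 0.23 and -0.061 in endothelial-like cells with a core to cap difference of 0.29. The gated endothelial-like values rest on only 21 control and 57 tomatidine cells and are given without intervals. The OPC-like cap was at -0.093 at resolution 1.5. The causes were not tested.

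The ratio of neurons over glia moved in the control and tomatidine libraries to 0.20 and 0.16 for the core and 0.23 and 0.20 for the cap with both sets of cell thresholds, and to 0.36 and 0.25, and 0.31 and 0.24, at the same depth mix. Without integration the tomatidine core was at 0.37 and the cap at 0.41 and 0.35. With the marker gate the tomatidine core was at 0.31 and the cap at 0.29. Leaving out border macrophage-like cells let 38 members be placed instead of 10. Highest in subcortical neuron-like cells were then 16 of 38 (9.83% of genes), against 4 of 10 (8.07%). Lowest in meningeal fibroblast-like cells were 12 of 38 (4.81%), against 1 of 10 (3.32%).

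Counts of members past the fold were small and moved easily. The share of all genes past the fold under each alternative is not given, and several alternatives also change which members can be read. The counts that follow therefore cannot be set against a background and are not read as results about the members. At 1.5-fold the number higher was 0 in excitatory neuron-like, subcortical neuron-like, OPC-like, endothelial-like and meningeal fibroblast-like cells, and the number lower was 0 in subcortical neuron-like, astrocyte-like, OPC-like, border macrophage-like and meningeal fibroblast-like cells and 1 in microglia-like cells. Without the filter on low counts 2 members were higher in each of OPC-like, astrocyte-like, excitatory neuron-like, interneuron-like, oligodendrocyte-like and subcortical neuron-like cells and 5 in border macrophage-like cells. The number lower was then 4 in OPC-like, 14 in border macrophage-like, 1 in endothelial-like, 6 in meningeal fibroblast-like and 3 in subcortical neuron-like cells. With both sets of cell thresholds the number higher was 0 in OPC-like and excitatory neuron-like, 1 in border macrophage-like and 2 in interneuron-like cells, and the number lower 2 in astrocyte-like and interneuron-like and 1 in endothelial-like, meningeal fibroblast-like and microglia-like cells. With the marker gate the number higher was 0 in OPC-like and endothelial-like and 1 in astrocyte-like, interneuron-like and microglia-like cells. The number lower was then 0 in OPC-like, 6 in astrocyte-like, 4 in interneuron-like and 5 in microglia-like cells. The gated endothelial-like class held only 76170 control and 171022 tomatidine UMIs, and the OPC-like class 230698 and 341208. Few members, if any, could reach the minimum of UMIs there. The counts of 0 in these classes therefore do not show that members lost their difference. TMM scaling gave 0 higher in excitatory neuron-like cells, and 1 higher and 3 lower in subcortical neuron-like cells. Resolution 1.5 gave 0 higher in OPC-like and 2 lower in astrocyte-like cells. Without doublet removal 1 was higher in meningeal fibroblast-like and 1 lower in microglia-like cells.

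Some single ratios changed sign. With the marker gate Psmd9 was at -0.034 in OPC-like and -1.17 in endothelial-like cells. Those classes then held 41 and 68, and 21 and 57, control and tomatidine cells, so Psmd9 rested on few UMIs. With both sets of cell thresholds Psmb3 was at -0.0036 in endothelial-like cells, and in subcortical neuron-like cells the immunoproteasome sum was at -0.38 and Psmb10 at -0.22. Over all deposited cells the core was at 1520 against 1472 CPM (-0.047), and over the kept cells at 1442 against 1403 CPM (-0.040). Depth limits the members of the smaller classes, of which 10 could be read in border macrophage-like cells.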
